A study of Mus musculus with 27 samples.

Results

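Slc15a3, Alox15, Pilra, Tmem132a, Slc45a3, Pi16 and Tmem173 are 7 of the 24000 genes counted in Ba/F3 cells. They were chosen from the measurements themselves. Each was called higher when the histone demethylase LSD1 was knocked down, and each stood above every control-hairpin library in every LSD1 knockdown library. Their difference between the LSD1 knockdown and the control hairpin is therefore given below as a description, and no p-value is read from it. All 7 were among the 12073 genes that passed the filter on low counts, and all 7 also passed it with the LSD1 libraries left out.

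LSD1 is encoded by Kdm1a. It removes methyl groups from histone tails in co-repressor complexes built on RCOR proteins, and the zinc-finger repressors GFI1 and GFI1B bring it to their target genes. In blood cells it is known for holding back genes of other lineages and of later stages of differentiation. The 7 genes have unlike products. Slc15a3 and Slc45a3 encode membrane transporters, Alox15 a lipid-oxidising enzyme, Pilra an inhibitory receptor, Pi16 a protein of the CAP family, Tmem132a a transmembrane protein and Tmem173 the innate immune sensor STING.

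Ba/F3 is a mouse pro-B cell line that needs the cytokine IL3 to grow. Cells were transduced with lentiviral short hairpins against LSD1, HDAC3, STAT5A or STAT5B (n = 3 libraries each) or with a hairpin without a target (n = 5), and were kept in puromycin for at least 1 week. All hairpin cells were starved of IL3 for 6 h and then given 10 ng/mL IL3 for 30 min. Wild-type cells, which carried no hairpin, were starved and given IL3 in the same way (stimulated, n = 5) or were only starved (deprived, n = 5). PolyA RNA was sequenced. Libraries within a group are biological replicates by their labels, which do not say how many hairpins or transductions stand behind a group. Ba/F3 is 1 established line, so no group holds a second genetic background.

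Gene counts summed to between 5.48 and 33.8 M reads. Levels below are counts per 1 M counted reads (CPM), with library sizes adjusted by edgeR's TMM factors, which are not divided by gene length. In 5 shallow libraries (LSD1 knockdown replicate 1, HDAC3 knockdown replicates 1 and 2, and replicates 1 and 3 of the no-target group), 14.0 to 24.9% of singly aligned reads lay outside genes. In the other 22 it was 8.70 to 11.99%. Of 14 genes listed as B-lineage markers, Ptprc, Cd79a and Cd79b were measured well (301, 46.4 and 30.3 CPM on average over all libraries). Ptprc is not restricted to B cells, as other blood cells express it too. The defining factors Pax5 (0.0154 CPM) and Ebf1 (0.0442 CPM) were near 0. The hairpin against LSD1 left 50.2, 38.1 and 70.6% of the mean no-target level of Kdm1a in replicates 1, 2 and 3. Kdm1a stood at 73.0, 55.4 and 103 CPM there, against 129 to 156 CPM in the 5 no-target libraries.

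**Figure D1:**
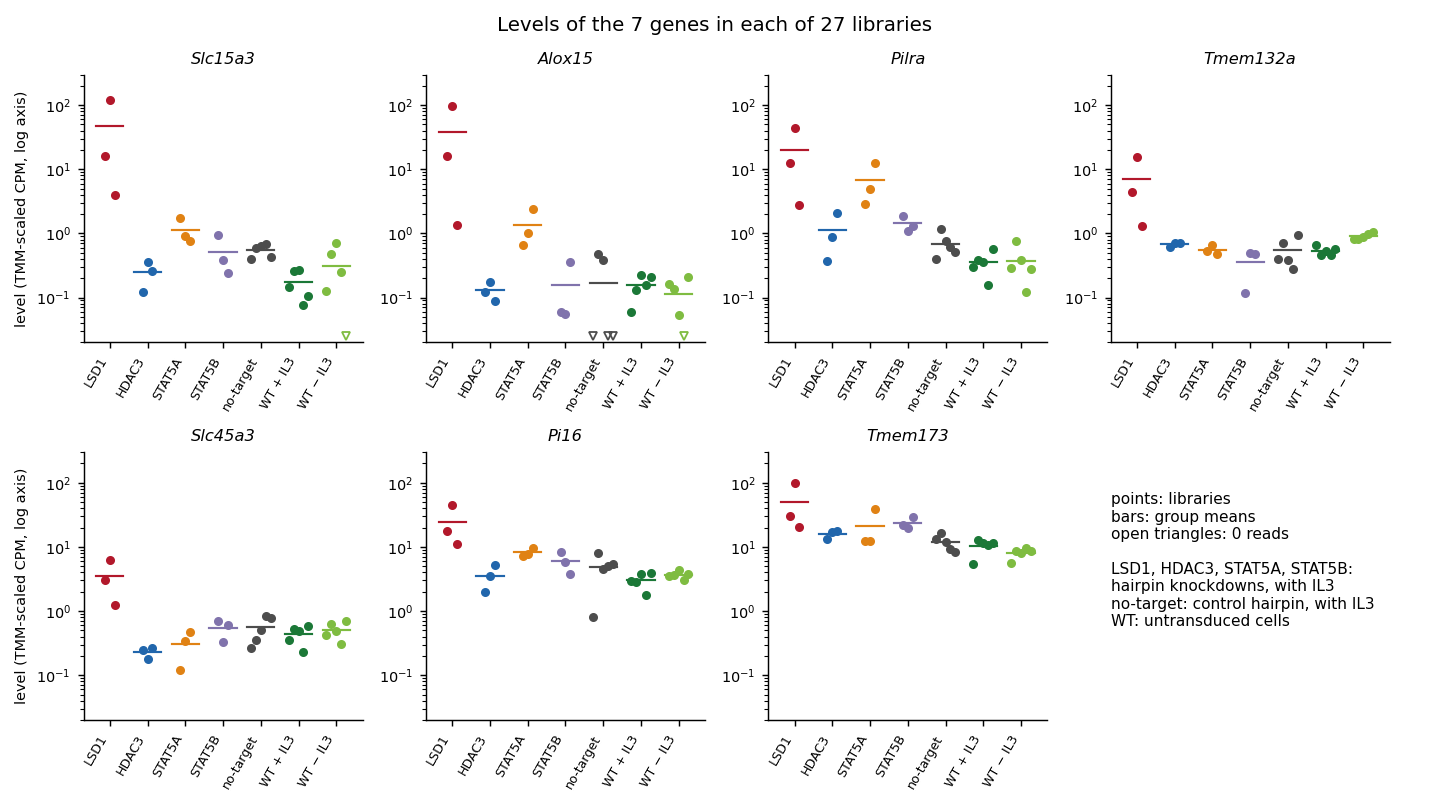
Level of each of the 7 genes in every library, in TMM-scaled CPM on a log axis. Points are libraries, bars are group means and open triangles are libraries without a read; the 3 LSD1 knockdown points lie above all 5 no-target points in each panel, and Pilra, Alox15 and Tmem173 also have STAT5A knockdown points above the lowest LSD1 point.

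Slc15a3 encodes a proton-coupled transporter of histidine and small peptides in the membrane of endosomes and lysosomes. It lies on chromosome 19 at 10839727 to 10859362 on the plus strand (GENCODE vM21, GRCm38/mm10). It stood at 16.0, 122 and 3.94 CPM in LSD1 knockdown replicates 1, 2 and 3, against 0.405, 0.592, 0.634, 0.679 and 0.432 CPM in no-target replicates 1 to 5. The gene was thus close to silent in every control-hairpin library, where 3 to 12 reads were counted, and was counted with 98, 1777 and 86 reads in the knockdown. The lowest knockdown library was 5.81 times the highest no-target library, the widest gap among the 7 genes. The fitted log2 fold change was 6.40 (SE 0.76). No other library of the series reached the lowest LSD1 value, the nearest being STAT5A knockdown replicate 1 at 1.72 CPM.

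Tmem132a, a member of a family of transmembrane proteins, is the tail-to-tail neighbour of Slc15a3 (chromosome 19, 10857822 to 10869940, minus strand). It stood at 4.41, 15.7 and 1.28 CPM in LSD1 knockdown replicates 1 to 3, against 0.405, 0.711, 0.380, 0.283 and 0.936 CPM in no-target replicates 1 to 5, a log2 fold change of 3.69 (SE 0.52). Replicate 3 was only 1.37 times the highest no-target library, so the groups were close at that end. The gene bodies overlap by 1541 bp in GENCODE and by 87 bp in RefSeq, and 94 exon bases of the protein-coding transcripts are shared. The library kit does not mark strand, so reads from those bases cannot be told apart between both genes. Ambiguous reads were kept in a separate summary row. Whether reads of these bases went there is not known, because the counting mode is not given. For each Slc15a3 read, 0.276, 0.128 and 0.326 Tmem132a reads were counted in the knockdown, against 0.417 to 2.17 with the no-target hairpin. From few reads, the ratio was 0.310, 0.727 and 0.625 in STAT5A knockdown replicates 1 to 3. It was 0.125, 1.29 and 2.00 in STAT5B knockdown replicates 1 to 3. The share of Tmem132a reads that came from Slc15a3 transcripts was not tested.

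The second transporter gene, Slc45a3, belongs to a family of proton-coupled sugar transporters and is best known as the prostate antigen prostein in human (chromosome 1, 131962967 to 131982969, plus strand). It stood at 3.10, 6.34 and 1.24 CPM in LSD1 knockdown replicates 1 to 3, against 0.270, 0.355, 0.507, 0.848 and 0.792 CPM in no-target replicates 1 to 5, a log2 fold change of 2.58 (SE 0.45). The knockdown values rest on 19, 92 and 27 reads, the lowest counts of the set. All 3 also lay above every other library of the series, of which no-target replicate 4 held the highest value.

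Alox15 encodes a lipoxygenase that oxygenates arachidonate and other polyunsaturated fatty acids and is known from eosinophils and resident macrophages (chromosome 11, 70344152 to 70352031, minus strand). It stood at 16.0, 96.6 and 1.38 CPM in LSD1 knockdown replicates 1 to 3, from 98, 1403 and 30 reads. In the no-target libraries, replicates 2 and 3 held 0.474 and 0.380 CPM from 4 and 3 reads. Replicates 1, 4 and 5 held no read, which allows up to 0.405, 0.170 and 0.216 CPM at 3 counts. Alox15 had the largest fitted change of the 7 (log2 fold change 8.05, SE 1.00), a value that depends on the few control reads. STAT5A knockdown replicate 3, at 2.36 CPM, was the only one of the other 24 libraries above the lowest LSD1 library.

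Pilra encodes the inhibitory member of a pair of immunoglobulin-like receptors of myeloid cells, which signals through the phosphatases encoded by Ptpn6 and Ptpn11 (chromosome 5, 137821952 to 137836281, minus strand). It stood at 12.4, 43.9 and 2.80 CPM in LSD1 knockdown replicates 1 to 3, against 0.405, 1.18, 0.760, 0.622 and 0.504 CPM in no-target replicates 1 to 5, a log2 fold change of 4.83 (SE 0.65). Its activating partners, which pair with the adaptor encoded by Tyrobp, lie upstream on the same strand. Pilrb2 stood at 3.10, 9.85 and 0.734 CPM in the knockdown, against 0 to 0.474 CPM with the no-target hairpin, and was called as well (log2 fold change 4.07, SE 0.81). Pilrb1 stood at 2.29, 15.1 and 1.05 CPM, against 0.540 to 1.87 CPM, and its groups overlapped (log2 fold change 2.52, SE 0.76). Tyrobp stood at 7.35, 97.9 and 6.93 CPM, against 1.08 to 8.43 CPM, with an overlap as well.

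The start regions of these 3 receptor genes are shown because they are nearly 1 sequence and the genes were high in the same libraries. Each runs from 250 bases before to 50 bases after the start of the transcript, on the minus strand, and is taken from RefSeq on GRCm38.p6 (Pilra chr5:137836229-137836528, Pilrb1 chr5:137858000-137858299, Pilrb2 chr5:137871709-137872008). Capitals mark the letters GAAANNGAAA, a core of interferon response elements, and AGATAA, a motif of GATA factors.
Pilra: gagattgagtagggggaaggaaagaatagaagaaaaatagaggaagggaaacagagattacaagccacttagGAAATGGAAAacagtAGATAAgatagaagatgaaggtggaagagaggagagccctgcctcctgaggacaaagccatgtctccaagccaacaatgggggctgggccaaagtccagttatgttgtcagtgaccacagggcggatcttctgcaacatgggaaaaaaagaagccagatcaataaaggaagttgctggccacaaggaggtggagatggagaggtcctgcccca
Pilrb1: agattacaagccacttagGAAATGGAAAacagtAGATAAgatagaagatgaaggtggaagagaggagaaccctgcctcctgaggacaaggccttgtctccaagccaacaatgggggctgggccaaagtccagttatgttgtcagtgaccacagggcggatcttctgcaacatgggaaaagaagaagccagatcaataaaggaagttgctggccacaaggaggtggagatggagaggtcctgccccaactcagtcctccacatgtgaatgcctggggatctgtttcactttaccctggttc
Pilrb2: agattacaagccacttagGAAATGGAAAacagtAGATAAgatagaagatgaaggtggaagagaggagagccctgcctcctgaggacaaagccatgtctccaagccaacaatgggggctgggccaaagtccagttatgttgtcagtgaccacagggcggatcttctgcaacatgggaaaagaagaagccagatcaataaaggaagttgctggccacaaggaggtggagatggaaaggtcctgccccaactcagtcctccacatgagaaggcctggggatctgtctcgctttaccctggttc

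Bases 55 to 300 of the Pilra window match bases 1 to 246 of the Pilrb2 window at 244 of 246 positions (99.2%) and those of the Pilrb1 window at 242 (98.4%). Counted from base 1 of the Pilra window, the substitutions towards Pilrb2 are A234G and G287A, and both marked stretches are the same in all 3 genes. Among 32851 promoter windows of the mouse, AGATAA was found on either strand in 11.2% and GAAANNGAAA in 3.44%, and both together in 0.524%. The marked letters describe the sequence and do not show that a factor binds there. The transcripts share sequence too: 10.1% of the runs of 36 bases in Pilra transcripts also occur in Pilrb1 or Pilrb2, 43.3% of those in Pilrb1 and 41.7% of those in Pilrb2. Reads that aligned to several places were counted in a separate summary row, so the levels of the 3 genes rest on their unshared parts, and a misplaced read could move between them.

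**Figure D2:**
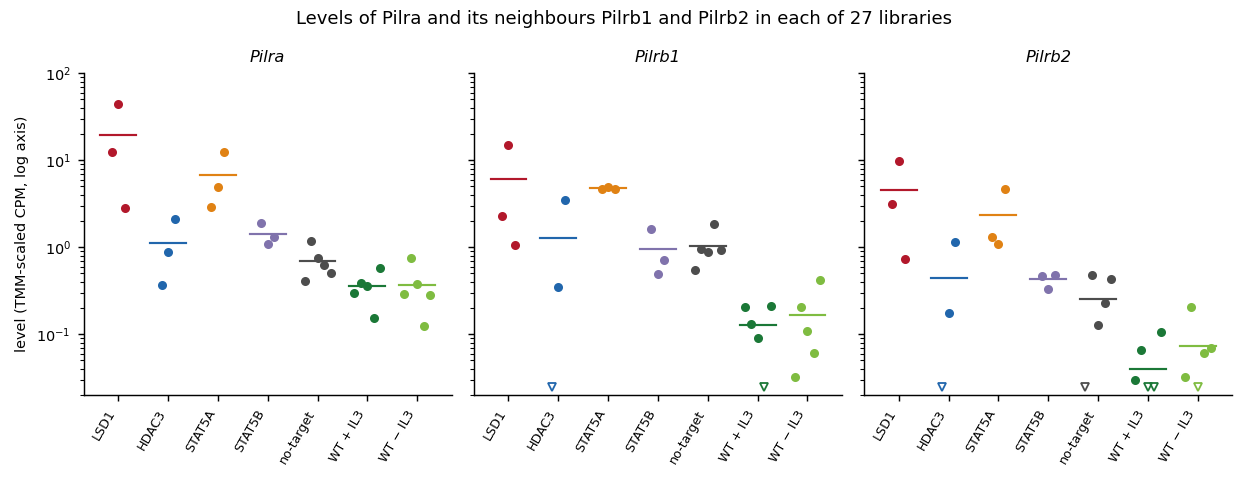
Level of Pilra, Pilrb1 and Pilrb2 in every library, in TMM-scaled CPM on a log axis, with points for libraries, bars for group means and open triangles for libraries without a read. LSD1 knockdown replicate 2 is the highest library for all 3 genes, and the STAT5A knockdown libraries lie above the no-target libraries for all 3.

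Promoter windows were matched for 3 of the 7 genes (Pilra, Pi16 and Slc45a3, the last with 2 start sites). Windows of Slc15a3, Alox15, Tmem132a and Tmem173 are not shown. None of the 4 windows held AAATCA, the core of GFI1-type motifs (14.0% of all windows), or TTCNNNGAA, the STAT-type motif (8.3%), on either strand. The window of Gfi1b, looked at for comparison because it was the 1 gene called higher in the list of the LSD1 complex, held 1 of each. CpG counts were 1 for Pilra, 3 for Pi16, and 17 and 2 for the windows of Slc45a3, against a median of 7 over all windows.

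Pi16 encodes a secreted or membrane-anchored CAP protein known from fibroblasts and, in human, from a subset of regulatory T cells (chromosome 17, 29317680 to 29330593, plus strand). It stood at 17.6, 45.1 and 11.2 CPM in LSD1 knockdown replicates 1 to 3, against 0.811, 8.06, 4.56, 5.09 and 5.47 CPM in no-target replicates 1 to 5, a log2 fold change of 2.35 (SE 0.43). Unlike the genes above, it was plainly expressed without the knockdown, in wild-type cells at 1.79 to 4.33 CPM. Replicate 1 of the no-target group stood below the other 4 and was among the 5 libraries with many reads outside genes.

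Tmem173 encodes STING, which binds cyclic dinucleotides such as cGAMP at the endoplasmic reticulum and activates the kinase TBK1 and the factor IRF3 (chromosome 18, 35733679 to 35740554, minus strand). It stood at 30.4, 99.7 and 20.4 CPM in LSD1 knockdown replicates 1 to 3, against 13.2, 16.7, 12.04, 9.44 and 8.28 CPM in no-target replicates 1 to 5, a log2 fold change of 2.08 (SE 0.40). Its margin was the narrowest of the 7, with the lowest knockdown library at 1.22 times the highest no-target library. STAT5A knockdown replicate 3 and STAT5B knockdown replicates 1 and 3 exceeded the lowest LSD1 value.

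In the fit over all genes, 19 genes were called higher in the LSD1 knockdown than with the no-target hairpin, 0.157% of the 12073 tested, and the 7 genes are among them. Being above all 5 no-target libraries in all 3 knockdown libraries held for 206 genes (1.71%). It also held for 9 of the other 12 genes called higher, so the 7 are part of a group of 16 and no measured limit sets them apart. Among the 9 are Gfi1b, Milr1, Csf1, Pilrb2, AI450353, Scpep1, Atp6v0a1 and Sgpl1. Just outside lay Ifitm6, with a lowest knockdown value of 1.93 CPM against a highest no-target value of 2.84 CPM. Cpa3 (3.99 against 8.71 CPM) and Il13 (0.275 against 0.507 CPM) were outside as well. By the size of the fitted change, Alox15, Slc15a3 and Pilra ranked 1, 2 and 6 of all genes tested. Tmem132a, Slc45a3, Pi16 and Tmem173 ranked 14, 45, 64 and 90, so many other genes lay between them. The 5 highest outside the 7 were Cd200r2 (log2 fold change 6.40), Il4 (6.25), Il13 (5.61), Cpa3 (4.77) and Ifitm6 (4.76). Il4 and Cd200r2 did not pass the test. Against all 24 other libraries, 11 genes stood higher in every LSD1 library (0.0911%), and Slc15a3, Slc45a3, Tmem132a and Pi16 were 4 of the 11.

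Within the LSD1 group the 7 genes varied together. All 7 were highest in replicate 2, intermediate in replicate 1 and lowest in replicate 3, which is the reverse of the order of the Kdm1a left in those libraries. The same order held for 66 of the 206 genes above all no-target libraries (32.0%) and for 10.7% of all genes tested. Over the no-target mean, the folds in replicates 2, 1 and 3 were 566, 93.7 and 8.05 for Alox15 and 223, 29.2 and 7.19 for Slc15a3. They were 63.1, 17.9 and 4.02 for Pilra, and 8.35, 2.54 and 1.71 for Tmem173 at the other end. With 3 libraries, of which replicate 1 also has many reads outside genes, whether Kdm1a or another difference between libraries goes with this order cannot be told apart. Calls of the 7 in these libraries show how their choice depends on single libraries and are no test of it. Without LSD1 knockdown replicate 2, Slc15a3, Alox15 and Pilra were the 3 genes of the 7 still called. A fit of only the 2 groups, replicate 2 included, called no gene, with fold changes close to those above (log2 8.04 for Alox15 and 2.09 for Tmem173). With the 5 shallow libraries left out, Slc15a3, Alox15, Pilra and Tmem132a were called.

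**Figure D3:**
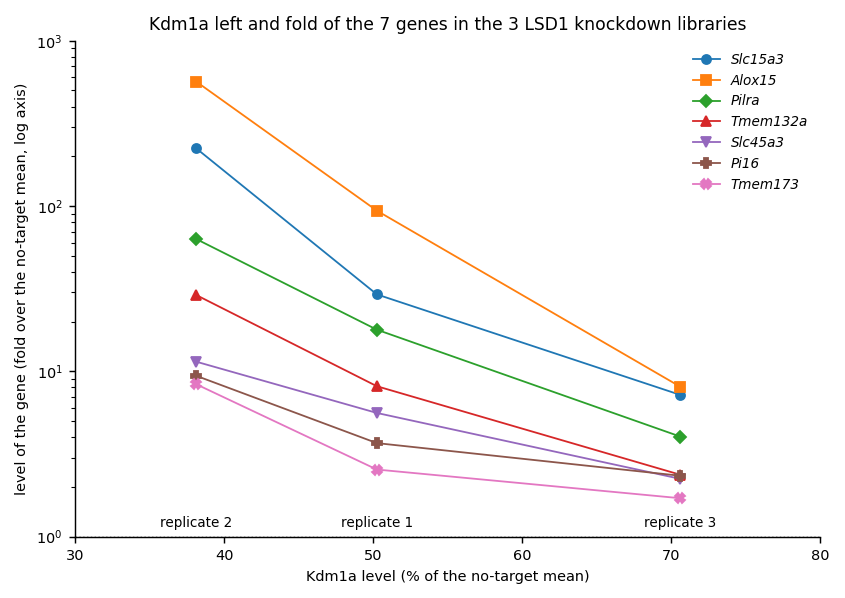
Fold of each of the 7 genes over its no-target mean (log axis) against the Kdm1a level left, in % of the no-target mean, for the 3 LSD1 knockdown libraries. Every line falls from replicate 2 (38.1% left) over replicate 1 (50.2%) to replicate 3 (70.6%), by most for Alox15 and by least for Pi16.

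The other hairpins were compared with the same no-target libraries, which had also served to choose the 7 genes, so each comparison is also given against stimulated wild-type cells. In the HDAC3 knockdown, 0 of the 7 genes were called by edgeR (0.0248% of all genes), 0 at an unadjusted p under 0.05 and 0 by DESeq2. HDAC3 is the catalytic subunit of another co-repressor complex. Slc15a3 stood at 0.124, 0.352 and 0.264 CPM in HDAC3 knockdown replicates 1 to 3, from 1, 2 and 3 reads, below all 5 no-target libraries, as were 1.59% of all genes. Slc45a3 stood at 0.248, 0.176 and 0.264 CPM, from 2, 1 and 3 reads, also below all 5. These depths cannot separate a lower level from counting error, and against the stimulated wild type both genes overlapped. Against that wild type, 0 of the 7 were called in the HDAC3 knockdown (12.1% of all genes). At an unadjusted p under 0.05 there was 1, a limit for which the share of all genes was not counted. The difference between the LSD1 and the HDAC3 knockdown uses the libraries that chose the genes, so its calls are a description and are not read as a test. In it, 6 of the 7 were called higher in the LSD1 knockdown (0.638% of all genes), Tmem173 being the exception (log2 fold change 1.65, SE 0.47). That count was 1 without LSD1 knockdown replicate 2, 3 without HDAC3 knockdown replicate 1 and 0 with the 5 shallow libraries left out.

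Apart from the LSD1 knockdown, only the STAT5A knockdown held a call among the 7 genes. STAT5A and STAT5B are the transcription factors that the IL3 receptor activates. Pilra stood at 2.90, 4.86 and 12.4 CPM in STAT5A knockdown replicates 1 to 3, against 0.405 to 1.18 CPM with the no-target hairpin and 0.155 to 0.581 CPM in stimulated wild type. All 3 libraries lay above all 5 of each control. The log2 fold change was 3.29 (SE 0.64) against the no-target hairpin, with an adjusted p of 0.0459 by edgeR's quasi-likelihood test (6 genes called higher, 0.0497%). It was 4.20 (SE 0.65) against stimulated wild type, with an adjusted p of 0.00296 (0.356% of genes called in either direction). The call against the no-target hairpin was lost without STAT5A knockdown replicate 2 (adjusted p 0.0555) or 3 (log2 fold change 2.49, SE 0.67), and without no-target replicate 1 (0.212), 3 (0.105), 4 (0.162) or 5 (0.214). It was also lost with the 5 shallow libraries left out (0.397). Replicate 3 stood apart in its markers as well: the 10 neutrophil markers summed to 1491 CPM there, against 77.7 and 81.2 CPM in STAT5A replicates 1 and 2 and 12.8 to 298 CPM with the no-target hairpin. The 10 eosinophil markers summed to 3876 CPM there, against 1003 and 1041 CPM in replicates 1 and 2 and 184 to 1185 CPM with the no-target hairpin. In STAT5B knockdown replicates 1 to 3 the neutrophil markers summed to 194, 833 and 818 CPM and the eosinophil markers to 1077, 1828 and 1446 CPM. Pilra stood at 1.87, 1.10 and 1.32 CPM in those libraries. The part of these markers in the Pilra level was not tested.

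Pilrb1 stood at 4.68, 4.95 and 4.68 CPM in STAT5A knockdown replicates 1 to 3, and Pilrb2 at 1.30, 1.09 and 4.72 CPM. Against stimulated wild type, where they reached at most 0.211 and 0.106 CPM, both passed edgeR's test (log2 fold change 5.02, SE 0.87, adjusted p = 0.00644 for Pilrb1; 5.67, SE 0.94, adjusted p = 0.00491 for Pilrb2). Against the no-target hairpin neither passed (adjusted p = 0.530 and 0.232, edgeR). Wild-type cells carried no hairpin, and the no-target hairpin itself stood above stimulated wild type by a log2 fold change of 2.88 (SE 0.85) for Pilrb1 and 2.53 (SE 1.07) for Pilrb2, without passing (adjusted p = 0.200 and 0.252, edgeR). For Pilra that difference was 0.91 (SE 0.67). In the HDAC3 knockdown both also passed against stimulated wild type (log2 fold change 3.26, SE 0.93, adjusted p = 0.0316 for Pilrb1; 3.42, SE 1.12, adjusted p = 0.0481 for Pilrb2; edgeR), while over the no-target hairpin they were at 0.38 (SE 0.83) and 0.89 (SE 0.98). Replicate 3 held most of that signal, at 3.51 and 1.14 CPM, and neither gene had a read in replicate 1. The LSD1 and STAT5A knockdowns share the no-target controls, and their levels of the receptor genes stand side by side here without a test of likeness.

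The other 6 genes did not pass in the STAT5A knockdown. At an unadjusted p under 0.05, edgeR gave 3 of the 7 genes over the no-target hairpin and 5 over stimulated wild type, Pilra included. The share of all genes at that limit was not counted, so these counts have no background to be read against. DESeq2 called 1 over the no-target hairpin, again Pilra. Alox15 stood at 0.651, 1.01 and 2.36 CPM in STAT5A knockdown replicates 1 to 3, above all no-target and all stimulated wild-type libraries (log2 fold change 3.26, SE 1.08, adjusted p = 0.483 over no-target; 3.12, SE 0.94, adjusted p = 0.195 over stimulated wild type; edgeR). Slc15a3 stood at 1.72, 0.922 and 0.756 CPM, again above every library of both controls (log2 fold change 1.02, SE 0.80, and 2.64, SE 0.84). Tmem173 reached 38.5 CPM in replicate 3 and 12.4 CPM in each of the other two. Pi16 stood at 7.28, 7.88 and 9.64 CPM, above all stimulated wild-type libraries but overlapping the no-target ones. Its log2 fold change was 0.78 (SE 0.44) over no-target and 1.42 (SE 0.43, adjusted p = 0.198 by edgeR) over stimulated wild type. Slc45a3 stood at 0.118 to 0.472 CPM, within its control ranges or below. Tmem132a stood at 0.472 to 0.671 CPM, within its no-target range. Its replicate 2 lay just above the highest stimulated wild-type value of 0.652 CPM. Lying above all 5 no-target libraries in this knockdown held for 2.53% of all genes, and above all 5 stimulated wild-type libraries for 5.91%.

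In the STAT5B knockdown 0 of the 7 genes were called by edgeR (0.34% of all genes called in either direction) or by DESeq2, with 1 at an unadjusted p under 0.05, Tmem173. Tmem173 stood at 22.1, 19.8 and 29.7 CPM in STAT5B knockdown replicates 1 to 3, against 8.28 to 16.7 CPM with the no-target hairpin and 5.39 to 12.7 CPM in stimulated wild type. The groups did not overlap, as for 2.91% of all genes against the no-target hairpin. Its log2 fold change was 1.00 (SE 0.40, adjusted p = 0.263 by edgeR). Against stimulated wild type 0 of the 7 passed in the STAT5B knockdown (0.191% of all genes), and 3 had an unadjusted p under 0.05. Pilra stood at 1.10 to 1.87 CPM there, above all stimulated wild-type libraries, like 3.96% of all genes (log2 fold change 1.97, SE 0.68, adjusted p = 0.351 by edgeR).

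Direct tests between these knockdowns compared none of the libraries that chose the genes. The spread behind each SE and p was still estimated over all 27 libraries, those of LSD1 and no-target included. Pilra was at a log2 fold change of 2.52 (SE 0.74, adjusted p = 0.0647) in the STAT5A over the HDAC3 knockdown, where 1.98% of all genes were called by edgeR. It was at 2.23 (SE 0.70, adjusted p = 0.783) in the STAT5A over the STAT5B knockdown, where 0.0248% were called. None of the 7 genes passed in either of these comparisons or in the STAT5B over the HDAC3 knockdown (8.11% called). At an unadjusted p under 0.05, edgeR gave 3, 2 and 0 of the 7 for the 3 comparisons in that order, and DESeq2 was not run on them.

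IL3 moved none of the 7 genes past the test within 30 min. Between stimulated and deprived wild-type cells, 3.82% of all genes were called by edgeR, and 0 of the 7, with 0 at an unadjusted p under 0.05 and 0 by DESeq2. Pairing same-numbered libraries within wild type alone called 2504 genes and again 0 of the 7. Their log2 fold changes lay between -0.78 (Slc15a3, SE 0.86) and 0.37 (Alox15, SE 1.13), with a median of -0.18 beside -0.02 over all genes. Tmem132a came closest: it stood at 0.652, 0.456, 0.537, 0.466 and 0.581 CPM in stimulated replicates 1 to 5, against 0.832, 0.825, 0.866, 0.986 and 1.05 CPM in deprived replicates 1 to 5. The groups did not overlap, as for 4.51% of all genes, which were lower in stimulated cells in this way, but the change did not pass (log2 fold change -0.73, SE 0.46, adjusted p = 0.520 by edgeR). The no-target hairpin did not differ from stimulated wild type for any of the 7 by the test (0.0% of all genes called; 0 of the 7 at an unadjusted p under 0.05 and 0 by DESeq2). Slc15a3 nevertheless stood higher in all 5 no-target libraries (0.405 to 0.679 CPM) than in all 5 stimulated wild-type libraries (0.0776 to 0.269 CPM), as did 2.35% of all genes (log2 fold change 1.62, SE 0.85, adjusted p = 0.324 by edgeR).

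**Figure D4:**
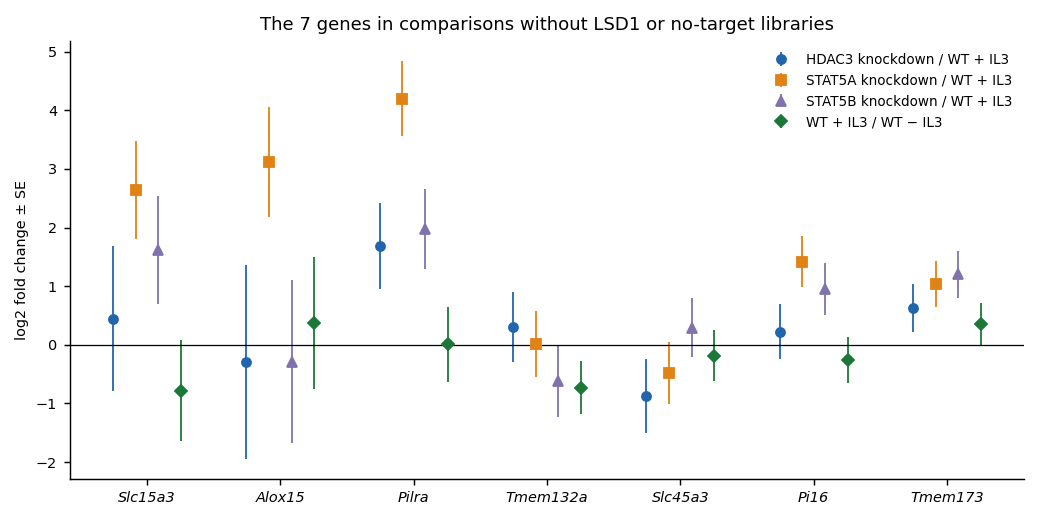
Log2 fold change with its SE for each of the 7 genes, for the HDAC3, STAT5A and STAT5B knockdowns over stimulated wild type. Stimulated over deprived wild type is shown as well. The groups compared hold no LSD1 or no-target library, but the spread was estimated over all 27 libraries. Pilra in the STAT5A knockdown, at 4.20, was the one value that passed the test, and the values of stimulated over deprived wild type lie between -0.78 and 0.37.

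Of the protein-coding genes within 100 kb, 28 that are not among the 7 were tested, and Pilrb2 was the 1 called (0.157% of all genes were called higher). Their median log2 fold change in the LSD1 knockdown over the no-target hairpin was 0.03, with 5 at an unadjusted p under 0.05 and 1 called by DESeq2. Upstream of Tmem132a, Tmem109 (log2 fold change -0.07) and the splicing factor gene Prpf19 (-0.29) lay near 0. Upstream of Alox15, Pelp1 was at -0.22. Arrb2, which encodes a beta-arrestin, stood above all no-target libraries at 135 ± 37.3 CPM in the knockdown (SD, n = 3), against 81.8 ± 8.77 CPM (SD, n = 5), without passing (log2 fold change 0.73, SE 0.20, adjusted p = 0.184 by edgeR). Next to Slc45a3, Nucks1 was at 0.09 and Elk4 at 0.05. Next to Pi16, Mtch1 was at -0.04 and Fgd2 at 0.44 (SE 0.24). Near Tmem173, Dnajc18 was at 0.09, Ube2d2a at 0.09 and Cxxc5 at -0.33.

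**Figure D5:**
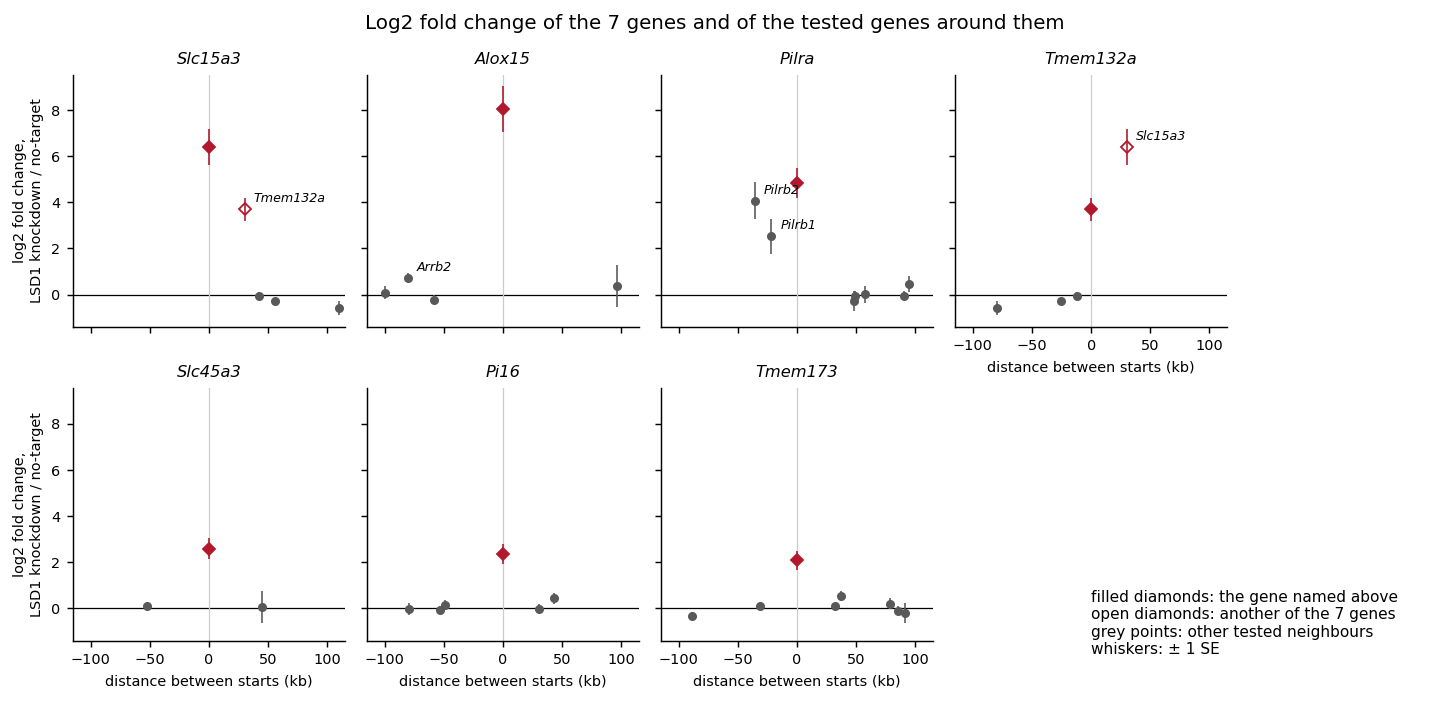
Log2 fold change of the LSD1 knockdown over the no-target hairpin, with its SE, for each of the 7 genes (filled diamonds) and for the tested protein-coding genes around it, by the distance between starts in kb (positive values lie downstream in the direction of the gene). Pilrb1 (2.52) and Pilrb2 (4.07) are the highest grey neighbours and the others lie between -0.59 and 0.73 (Arrb2), and Slc15a3 and Tmem132a appear in each other's panel as open diamonds.

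Pathway partners and relatives of the 7 were looked at in the LSD1 knockdown over the no-target hairpin, where 0.157% of all genes were called higher. In lists this short, 0 calls lie near that share and are no result about the partners. Around Tmem173, 0 of 14 tested STING pathway genes were called by edgeR, 0 at an unadjusted p under 0.05 and 0 by DESeq2, with a median log2 fold change of -0.07 beside -0.02 over all genes. The sensor gene Mb21d1, which encodes the enzyme that makes cGAMP, was at -0.08 (SE 0.25), Tbk1 at 0.14 (SE 0.15) and Irf3 at -0.32 (SE 0.22). Ifnb1, the interferon gene downstream of STING, had no read in any library of the series, so no change in it could be measured. Of 24 interferon response genes 0 were called, 2 had an unadjusted p under 0.05 and 0 were called by DESeq2, with a median of 0.00. Among them, Irf1 was at -0.99 (SE 0.47) and Stat2 at 0.20.

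Of the eicosanoid genes that act beside Alox15, 0 of 9 were called, 1 had an unadjusted p under 0.05 and 0 were called by DESeq2, although all 9 estimates were above 0 (median 0.33). Alox5, which encodes the lipoxygenase of leukotriene synthesis, stood at 8.98, 31.9 and 1.97 CPM in LSD1 knockdown replicates 1 to 3, against 0.811 to 5.83 CPM in the no-target libraries (log2 fold change 2.32, SE 0.85, adjusted p = 0.491 by edgeR). It was again highest in replicate 2, but its groups overlapped. Alox5ap, the most abundant of the list with Lta4h and Ptgs1, was at 0.32 (SE 0.25), Lta4h at 0.11 and Ptgs1 at 0.16. Of the relatives of the transporters, Slc15a4, the other peptide and histidine transporter of the lysosome, was at 0.00 (SE 0.14), Slc15a1 at 0.30 (SE 0.59) and Slc45a4 at -0.23 (SE 0.21). Neither list held a call or an unadjusted p under 0.05, by edgeR or DESeq2. Of the CAP family, 0 of 3 tested genes were called, 2 had an unadjusted p under 0.05 and 0 were called by DESeq2. Its Glipr1 stood at 126 to 364 CPM in the knockdown, against 56.5 to 153 CPM in the no-target libraries (log2 fold change 0.98, SE 0.34, adjusted p = 0.445 by edgeR). Tmem132b, Tmem132c, Tmem132d and Tmem132e did not pass the filter on low counts. Tmem132c held 0.653 CPM in LSD1 knockdown replicate 1 and no read in replicates 2 and 3, while the 7 genes stood at 3.10 to 30.4 CPM in that library.

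In the list of the LSD1 complex, 2 of 19 tested genes were called by edgeR, and 2 by DESeq2. Kdm1a was the 1 lower (log2 fold change -0.91, SE 0.14, adjusted p = 0.00126). Gfi1b, the repressor that recruits LSD1 and is known to repress its own gene, was the 1 higher. It stood at 176, 445 and 154 CPM in LSD1 knockdown replicates 1 to 3, against 32.6, 23.2, 34.8, 21.9 and 69.1 CPM in no-target replicates 1 to 5 (log2 fold change 2.83, SE 0.37, adjusted p = 0.000251, edgeR). Gfi1b was thus also highest in replicate 2 and lowest in replicate 3. It was lower in stimulated than in deprived wild-type cells, at 36.6 to 120 CPM against 124 to 157 CPM (log2 fold change -1.32, SE 0.32, adjusted p = 0.0177, edgeR).

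Markers of other blood cells were read in the same libraries, where 0.157% of all genes were called higher. The 10 eosinophil markers counted summed to 1240, 4155 and 1177 CPM in LSD1 knockdown replicates 1 to 3, against 184 to 1185 CPM with the no-target hairpin, with replicate 2 highest, as for the 7 genes, and replicate 3 inside the no-target range. None of the 7 tested was called by edgeR or DESeq2, although 6 had an unadjusted p under 0.05 and the median log2 fold change was 2.33. The share of all genes at that unadjusted limit was not counted. Epx was at 2.46 (SE 0.82), Prg2 at 2.17 (SE 0.76) and Prg3 at 2.33 (SE 0.79), while Ear10 was at 0 in every library. The 13 mast cell and basophil markers summed to 864, 2457 and 818 CPM, against 529 to 1322 CPM, with replicates 1 and 3 inside that range. Cpa3 was the 1 of 8 tested that was called (log2 fold change 4.77, SE 0.94, adjusted p = 0.0279, edgeR), with 4 at an unadjusted p under 0.05 and 2 called by DESeq2. Kit and Fcer1a, which define mast cells, averaged 0.0383 and 0.0140 CPM over all libraries. Macrophage and monocyte markers summed to 306, 656 and 230 CPM in replicates 1 to 3, against 68.9 to 320 CPM, again highest in replicate 2. Of 4 tested, 0 were called by edgeR or DESeq2 and 0 had an unadjusted p under 0.05. All 4 estimates were above 0 (median log2 fold change 0.69), and 1 of the 4 genes stood above all no-target libraries. Marco and C1qa were at 0 in every LSD1 library and Csf1r averaged 0.136 CPM over all. Neutrophil markers summed to 258, 153 and 519 CPM in replicates 1 to 3, against 12.8 to 298 CPM, with replicate 2 the lowest. Of 8 tested, 0 were called by edgeR, 3 had an unadjusted p under 0.05 and 1 was called by DESeq2. Dendritic cell (0 of 2 called; 0.963 to 3.31 CPM, against 0.676 to 1.41 CPM), T and NK cell (0 of 4; 6.28 to 9.44 CPM, against 3.42 to 9.14 CPM) and B-lineage markers (0 of 3; 375 to 555 CPM, against 304 to 658 CPM, Ptprc included) held no call by either tool. At an unadjusted p under 0.05 they held 0, 1 and 0 genes. In bulk RNA, more cells of a type and more RNA per cell cannot be told apart, and the part of these markers in the levels of the 7 genes was not tested.

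Across all 27 libraries, the log2 CPM of any pair of the 7 genes correlated at a Pearson r of 0.49 to 0.87 (median 0.75 over 21 pairs). Over the 24 libraries without LSD1 knockdown, r ran from -0.45 to 0.73 with a median of 0.23. The choice of genes high in all 3 LSD1 libraries raises the values over 27 libraries, so the drop is no finding. The highest values over the 24 were those of Alox15 with Pilra (0.73), Pilra with Pi16 (0.71) and Pilra with Tmem173 (0.70), while Slc15a3 and its overlapping neighbour Tmem132a were at 0.75 over 27 libraries and -0.38 over 24. The 6 tested genes most like the mean of the 7 over 27 libraries were Ifitm6 (r = 0.88), Pilrb2 (0.86), Sgpl1 (0.83), Csf1 (0.83), Il13 (0.81) and 4632428N05Rik (0.81). Only Pilrb2 (r = 0.89) was also among the 6 most alike over the 24 libraries, where Oosp1, Rps6ka1, Ccl6, Gm5483 and Srgn made up the rest. All these points share libraries, depths and the class of reads outside genes, so the values describe this set of libraries.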

How the data were processed

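The authors deposited raw counts of reads per gene symbol, 1 table per library, for 27 libraries of polyA RNA. The submitters' processing notes name the build mm10 and the tools HTSeq 0.5.4p5, DESeq2 1.2, TopHat2 2.0.10 and Trimmomatic 0.30. The gene annotation and the counting mode are not given in the sources used here. Each table ends in 5 summary rows, which entered neither the library sizes nor any test. The 7 genes, the gene lists and the tests were chosen with earlier results of these data known.

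For testing, edgeR's quasi-likelihood method was run on the 12073 genes kept by filterByExpr in all 27 libraries together, with 1 mean for each group, TMM factors and robust dispersions (R 4.3.3 with edgeR 4.0.16 and limma 3.58.1). The Benjamini-Hochberg adjusted p had to be under 0.05 for a call, with the adjustment made over the whole table. For counts at an unadjusted p under 0.05, the share of all genes was not counted. Those counts are descriptions and are not read as results. Each knockdown was compared with the no-target hairpin and with stimulated wild type, and knockdowns and wild-type conditions with each other. Libraries with over 13% of singly aligned reads outside genes were treated as a class. A library without reads was given the level of 3 counts as its limit, which covers counting error only. The script was tested on simulated counts. Positions are from GENCODE vM21 and promoter windows from RefSeq.

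Named besides the 7 genes are the targeted genes and up to 4 called genes per list, or else the most abundant. Neighbours within 100 kb with a mean of at least 1 CPM are named as well. So are the 6 genes most alike (Pearson r of log2 CPM, prior count 2, with the mean z-score). The 5 genes outside the 7 with the largest fold change complete the set. Defining markers, promoter comparisons and other genes were named after their values were seen. Alternatives were RLE factors, no filter, DESeq2 1.42.0, the 2 groups alone, a replicate block, a threshold of 0.01, leaving out the class of 5 libraries or giving it a term, wild type as the control, and leaving out each library. Same-numbered wild-type libraries deviated together (r 0.375 to 0.716 over 5 pairs), so these numbers pair them, and the pairing is read from the data. In the other comparisons not every pair was over 0.1. No 2 replicates were copies (chi-square per degree of freedom at least 9.90 over 42 pairs). Some genes of the lists are not reported here.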

Additional observations from a re-analysis of the deposited data

Results flagged for a closer look

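Tmem173 was lowest in stimulated wild-type replicate 1, at 5.39 CPM, against 10.8 to 12.7 CPM in the other 4 libraries of that group. It was the 1 value flagged as far from the rest of its group among 21 checks. Each check took 1 gene in 1 group of 4 or more libraries, and chance flags about 5% of them.

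Slc15a3 lay above all no-target libraries in all 3 LSD1 knockdown libraries and below them in all 3 HDAC3 knockdown libraries, whose highest value was 0.352 CPM. The LSD1 side chose the gene, so no test of this difference is read. The same gene lay above the no-target libraries in all 3 STAT5A knockdown libraries, again opposite to the HDAC3 knockdown with its highest value of 0.352 CPM. That difference was tested and did not pass (log2 fold change of the STAT5A over the HDAC3 knockdown 2.20, SE 1.12, adjusted p = 0.211 by edgeR). Slc45a3 was above the no-target libraries in the LSD1 knockdown and below them in the HDAC3 knockdown, with a highest value of 0.264 CPM. The HDAC3 values rest on 1 to 3 reads per library.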

How the results depend on the processing

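The 7 log2 fold changes of the LSD1 knockdown over the no-target hairpin were positive in all 112 recomputations, between 1.08 (Tmem173) and 8.99 (Alox15). How many of the 7 were called varied more. The LSD1 libraries chose the genes, so calls that use them show only how the choice depends on the processing. RLE factors, no filter, DESeq2, a term for the 5 shallow libraries and stimulated wild type as the control each gave 7. A threshold of 0.01 gave 4, leaving out the 5 shallow libraries 4, the 2 groups alone 0, and leaving out 1 library 3 to 7. For the STAT5A knockdown, where Pilra was the 1 call, no filter, the 2 groups alone, the threshold of 0.01, and leaving out the 5 shallow libraries or giving them a term each gave 0, and leaving out 1 library 0 to 1. For the LSD1 over the HDAC3 knockdown the 6 calls became 3 at 0.01, 0 in the 2 groups alone, 0 without the 5 shallow libraries and 1 to 7 with 1 library left out. The cause was not tested. The HDAC3 and STAT5B knockdowns over the no-target hairpin, IL3 in wild type and the no-target hairpin over wild type gave 0 of 7 under every alternative run.

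With a replicate block, 4 of the 7 genes were called in the LSD1 knockdown and 0 in the STAT5A knockdown, and 8 and 3 of all genes. Outside the wild-type groups these libraries share only a number (correlations of -0.705 to 0.666). A block within wild-type cells alone, added after seeing the data, called 2504 genes, against 1170 in those 2 groups without it and 461 in the fit of all libraries, and 0 of the 7 in each.

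Over all genes, the LSD1 knockdown held 20 calls, against 64 by DESeq2, 6 at 0.01, 6 without the shallow libraries, 0 in the 2 groups alone and 173 over stimulated wild type. It held 5 without LSD1 knockdown replicate 2, 57 without replicate 3, and 8, 9 and 7 without no-target replicates 1, 4 and 5. DESeq2 gave 10 for HDAC3 (edgeR 3), 32 for STAT5A (8), 163 for STAT5B (41), 122 for no-target over stimulated wild type (0), 332 for LSD1 over HDAC3 (99) and 698 for IL3 (461). Counts of 1 to 5 reads limit the values of Slc15a3, Alox15 and Slc45a3 in several libraries other than LSD1.

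Signs turned only among log2 fold changes that no setting called. Over stimulated wild type in place of no-target, Slc15a3 was at 0.44 and Pi16 at 0.22 in the HDAC3 knockdown, and Slc15a3 at 1.62 and Slc45a3 at 0.29 in the STAT5B knockdown. Without the shallow libraries, Tmem132a was at -0.18 in the STAT5A knockdown, and Alox15 at 0.16 and Pi16 at -0.031 in the STAT5B knockdown. A term for them gave 0.10 for Alox15 in the HDAC3 knockdown, -0.17 for Tmem132a in the STAT5A knockdown and 0.11 for Alox15 in no-target over wild type. Without a filter, Slc15a3 was at 0.019 in the STAT5B knockdown and Tmem132a at -0.028 in no-target over wild type. DESeq2 gave -0.0095 for Pilra under IL3 and 0.029 for Alox15 in no-target over wild type. The replicate block gave 0.053 for Slc45a3 in the STAT5B knockdown and -0.12 for Tmem132a in no-target over wild type.

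With 1 library left out, the HDAC3 knockdown ranged from -0.65 to 0.78 for Alox15 and from -0.20 to 1.18 for Pilra, and the STAT5A knockdown from -0.19 to 0.36 for Tmem132a. The STAT5B knockdown ranged from -0.72 to 0.25 for Slc15a3, -1.14 to 0.78 for Alox15, -0.39 to 0.17 for Slc45a3 and -0.0049 to 0.56 for Pi16. IL3 ranged from -0.22 to 0.41 for Pilra, and no-target over wild type from -1.06 to 0.35 for Alox15 and -0.33 to 0.21 for Tmem132a.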

Other observations

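Il4 and Cd200r2 ranked among the 7 genes by the size of their change in the LSD1 knockdown. Il4, which encodes interleukin 4, stood at 0.653, 17.6 and 0.504 CPM in LSD1 knockdown replicates 1 to 3, against at most 0.380 CPM in the no-target libraries. All 3 knockdown libraries lay above the controls, but the change did not pass (log2 fold change 6.25, adjusted p = 0.0554 by edgeR). Cd200r2, a receptor gene of the myeloid lineage, stood at 0.653, 5.72 and 0.0917 CPM, against at most 0.0720 CPM, also without passing (log2 fold change 6.40, adjusted p = 0.107 by edgeR). In replicates 1 and 3 its levels come from few reads, so lying above the controls there cannot be separated from counting error. The fold changes of Il4 and Cd200r2 rest mostly on replicate 2.

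Gfi1b stood at 21.8, 21.8 and 16.9 CPM in HDAC3 knockdown replicates 1 to 3, below all 5 no-target libraries (21.9 to 69.1 CPM) and below all 5 stimulated wild-type libraries (36.6 to 120 CPM). Against stimulated wild type it passed (log2 fold change -1.56, SE 0.40, adjusted p = 0.0250 by edgeR, where 12.1% of all genes were called). Against the no-target hairpin it did not (log2 fold change -0.86, SE 0.39, adjusted p = 0.861 by edgeR).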
